A study of Gossypium hirsutum with 3 samples.

Results

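The genes described here lie on scaffolds of the Gossypium hirsutum TM-1 genome assembly that were not joined to any chromosome. They were chosen by identifier alone, as all genes whose name begins with Gh_Sca, and numbered 4044 of the 70478 genes measured, or 5.74%. Expression was measured by RNA-seq in 3 replicate libraries of true leaves from 20-day-old, untreated, greenhouse-grown plants of TM-1, the standard line of upland cotton. All libraries belong to this single wild-type condition, so every comparison below sets genes against other genes of the same libraries. The sources used here do not say whether the replicates came from separate plants, and the spread between them may be technical.

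Upland cotton is an allotetraploid with an A and a D subgenome, which came from different diploid ancestors. A gene on a chromosome therefore has a subgenome letter and a chromosome number in its name, whereas a scaffold gene has only the number of its scaffold and its order on it. Scaffolds remain unanchored in an assembly when no marker or sequence overlap places them on a chromosome, which is common for short and repeat-rich sequences. The name of a scaffold gene therefore does not say which subgenome it belongs to. In Gh_Sca004717G03, the scaffold number is 4717 and the gene index is 3. None of these identifiers matched the RefSeq gene table at hand (0 matches), so no function or sequence is given for any gene, and markers of leaf could not be looked up by name.

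The 4044 genes were spread over 3625 scaffolds. Of these scaffolds, 3419 (94.3%) carried a single gene, and the other 206 carried 625 genes. Among the latter, 121 scaffolds had 2 genes, 35 had 3 genes, 15 had 4 genes and 35 had 5 or more. The longest series was that of Sca004717 with 15 genes, followed by Sca004768 with 11 and Sca004842 with 9. On each of the 3625 scaffolds the gene indices ran from 1 without a gap (0 scaffolds with a missing index). Scaffold numbers ran from 4717 to 288207, and multi-gene scaffolds sat at the low end. Their median number was 5304 and the highest 19135, whereas the median number of single-gene scaffolds was 91184.

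Expression is given as FPKM, a level in mapped fragments that is corrected for transcript length and for library size. A gene is called expressed at FPKM of 1 or more, the bound used in the study's methods. The sum of FPKM over all genes was 941105, 942419 and 1012480 in replicates 1, 2 and 3, and so was highest in replicate 3. The typical gene was not higher there. Over all genes, the mean of log2(FPKM + 1) was 1.96, 1.97 and 1.90 in the same order. The share of all genes at FPKM of 1 or more was 58.0%, 58.4% and 56.8%. FPKM carry no read counts, so the number of reads behind a value is unknown and no counting error can be given.

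Scaffold genes were weakly represented in leaf. By the mean FPKM of the libraries, 802 of the 4044 genes (19.8%) were expressed, against 58% of all 70478 genes measured. For the A subgenome the share was 61.4%, and for the D subgenome it was 59.2%. The libraries are of bulk leaf, so a gene used in few cells and a gene with little RNA in every cell cannot be told apart. Across the 26 chromosomes the expressed share ran from 55.7% on D10 to 65.0% on A03, so the scaffold genes lay well below the lowest chromosome. Within libraries, 19.9% ± 0.14 (SD, n = 3) of scaffold genes and 60.0% ± 0.89 (SD, n = 3) of chromosome genes reached FPKM 1. The difference was -40.5, -40.7 and -39.3 percentage points in replicates 1, 2 and 3, and its mean of -40.2 was far larger than its SD of 0.76 between libraries. The difference had the same sign in 3 of 3 libraries, for which a two-sided exact sign-flip permutation test over libraries gives p = 0.25, the smallest value that 3 libraries allow. This holds for every difference between gene sets below, since each had the same sign in all 3 libraries, so none of them could pass a threshold of 0.05.

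The mean level on the log2(FPKM + 1) scale was 0.64 ± 0.01 (SD, n = 3) for scaffold genes and 2.02 ± 0.04 (SD, n = 3) for chromosome genes, a difference of -1.39 ± 0.03 (SD, n = 3). The pseudocount of 1 understates the gap of weakly expressed genes, and with a pseudocount of 0.1 it was -2.61. The gap was smaller among the expressed genes. Among the expressed genes, the mean was 2.76 ± 0.03 (SD, n = 3) over 802 scaffold genes and 3.22 ± 0.05 (SD, n = 3) over 40059 chromosome genes, a difference of -0.45 ± 0.02 (SD, n = 3). The median FPKM of expressed genes was 4.54 on scaffolds, with quartiles of 2.28 and 10.8, and 6.98 on chromosomes, with quartiles of 3.14 and 16.0. Of the scaffold genes, 210 (5.19%) stood at FPKM 10 or higher by the mean, while 21.9% of all genes did.

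Many scaffold genes were listed at exactly 0. In every library, 1971 scaffold genes (48.7%) stood at 0, against 18.3% of all genes and 16.4% of chromosome genes. An exact 0 in such a file can be a gene without reads or a gene for which no estimate was made. The files write it in 2 ways, as 0.0 and as 0.000000, and the sources used here do not say what the difference stands for. The study lists uniquely mapped reads for these libraries, and a gene whose sequence occurs in several copies can lose its reads when such reads alone are kept. Whether the FPKM rest on them is not stated, and the part of this in the zeros was not tested. The short form made up between 95.9% and 96.3% of the zeros of scaffold genes in a library, but between 70.9% and 73.0% of those of chromosome genes. It stood in every library for 1884 scaffold genes (46.6%), against 11.3% of all genes. When genes listed at 0 in every library were left out, scaffold genes were still lower than chromosome genes, by -1.18 on the log2(FPKM + 1) scale. The classes of level show the same order, with the share of genes at 0 falling and that of expressed genes rising from single-gene scaffolds over multi-gene scaffolds to the chromosomes.

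**Figure D1:**
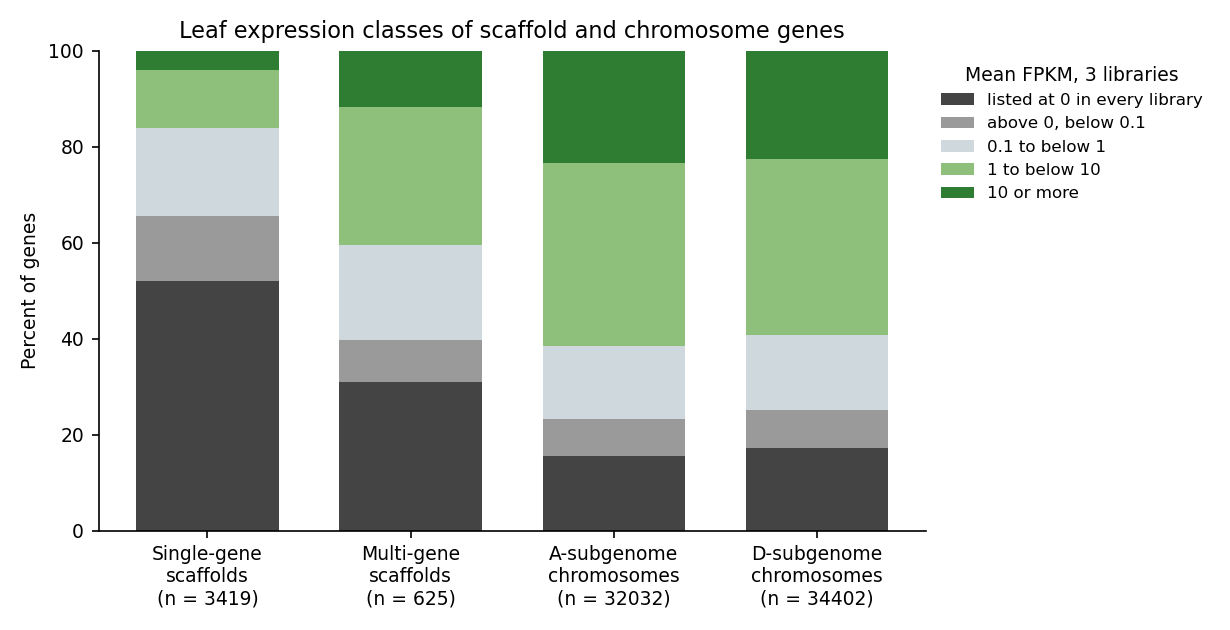
Percent of genes (y axis) in 5 classes of mean FPKM over the 3 libraries, for genes on single-gene scaffolds (n = 3419), genes on multi-gene scaffolds (n = 625) and genes of the A and D subgenomes (x axis). Genes listed at 0 in every library made up 52.0% of the first bar and 30.9% of the second, against 15.5% and 17.2% of the A and D bars.

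Summed over genes, the scaffold genes held 1.27%, 1.26% and 1.26% of the FPKM of replicates 1, 2 and 3. This small share was itself held by few genes. Of the 4044 genes, 36 held 50% of the scaffold FPKM and 410 held 90%. The 36 genes were 0.89% of the scaffold genes, while on the chromosomes 1345 genes, or 2.02%, held 50% of the FPKM. Both percentages count genes listed at 0, which made up 48.7% of scaffold and 16.4% of chromosome genes. The expressed genes numbered 802 on scaffolds and 40059 on chromosomes. The percentages therefore do not show that FPKM was more concentrated among the expressed genes of scaffolds. Scaffold genes provided 1 of the 100 most abundant transcripts of the leaf, 8 of the 500 and 16 of the 1000 most abundant. For comparison, they made up 5.74% of all genes and 802 of the 40861 expressed genes.

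The 10 highest scaffold genes had mean FPKM between 193 and 1017. Of these, 8 were the single gene of their scaffold, as were 84.5% of all scaffold genes. The highest was Gh_Sca015328G01, at FPKM 937, 918 and 1194 in replicates 1, 2 and 3, which ranked 78 among all genes. Gh_Sca123119G01 followed at 503, 502 and 726. In both genes replicates 1 and 2 were close together and replicate 3 was clearly higher. Gh_Sca102881G01 had 328, 320 and 393, again with replicate 3 on top. Gh_Sca008940G01 had the reverse order, at 349.8, 336 and 321, with values much closer to each other. Its neighbour in rank, Gh_Sca025165G01, stood at 295, 298 and 366. The next pair in rank was Gh_Sca048107G01, at 275, 265 and 305, and Gh_Sca049676G01, at 213, 236 and 253. In 7 of the 10 genes replicate 3 was the highest library and in the other 3 it was the lowest. Over all 802 expressed scaffold genes replicate 3 was the highest library in 37.2%, and over all expressed genes in 32.5%. Gh_Sca007080G01 and Gh_Sca009545G02 were the members of this group that shared their scaffold with another gene. They had FPKM of 209, 211 and 194 and of 189.9, 209.6 and 181. Gh_Sca085555G01, again a single gene, stood between them at 193, 179.9 and 217. In the order of the 10 levels, the libraries overlapped among Gh_Sca102881G01, Gh_Sca008940G01 and Gh_Sca025165G01, between the latter and Gh_Sca048107G01, and among the 3 lowest genes. The libraries of the other neighbours in this order did not overlap. The coefficient of variation between libraries was between 4.21% and 22.3% in these 10 genes.

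Agreement between libraries was lower for scaffold genes than for chromosome genes. Across the 4044 scaffold genes, Spearman's rho between libraries was 0.896 for replicates 1 and 2, 0.888 for replicates 1 and 3 and 0.881 for replicates 2 and 3. Across chromosome genes it was 0.989, 0.985 and 0.983. These values are across genes, which are not independent replicates, and many more scaffold genes were near 0. The spread between libraries was therefore compared within classes of mean FPKM. Levels were not matched further within a class, and over all expressed genes the median FPKM was 4.54 on scaffolds and 6.98 on chromosomes. Among genes with mean FPKM from 1 to below 10, the median coefficient of variation between libraries was 20.4% for 592 scaffold genes and 15.3% for 24812 chromosome genes. Within the former, the median was 22.7% for 412 genes on single-gene and 16.0% for 180 genes on multi-gene scaffolds. At a mean FPKM of 10 or more, the medians were 10.1% for scaffold and 8.90% for chromosome genes. Here the medians of single-gene and multi-gene scaffolds were close, at 10.32% for 137 genes and 10.01% for 73 genes. Single-gene and multi-gene scaffolds were not matched by scaffold number in this comparison of spread. The number of reads per gene and the transcript length are not in the files, and their part in this spread was not tested. Of the 802 expressed scaffold genes, 66 (8.23%) had a coefficient of variation above 50%, against 1.69% of all expressed genes. Single-gene scaffolds held 54 of the 66 and 549 of the 802. At a mean FPKM of 10 or more, single-gene scaffolds held 1 such gene among 137, and multi-gene scaffolds 3 among 73. The highest library of the 66 genes was replicate 1 in 14, replicate 2 in 25 and replicate 3 in 27, so no library accounted for most of them.

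Some expression calls differed between libraries. FPKM of 1 or more was reached in every library by 715 scaffold genes (17.7%), against 55% of all genes. It was reached in 1 or 2 of the libraries by 190 scaffold genes (4.70%), against 5.4% of all genes. Of the scaffold genes that reached it in any library, 21.0% did not do so in all 3, compared with 8.68% of the chromosome genes. Expressed scaffold genes also lay closer to the bound, with a lower quartile of 2.28 against 3.14. The part of this in the calls was not tested. The 5 expressed genes with the largest range over the libraries were all single genes of their scaffold, as were 549 of all 802 expressed scaffold genes. Gh_Sca053668G01 had FPKM 14.0, 2.03 and 3.56 in replicates 1, 2 and 3, high in replicate 1. Gh_Sca017425G01 had 1.26, 5.96 and 0.53, and Gh_Sca110448G01 had 2.51, 6.396 and 0.99, both high in replicate 2. Gh_Sca014297G01, at 7.18, 8.90 and 1.47, and Gh_Sca070655G01, at 2.41, 3.38 and 0.14, were low in replicate 3. Their ranges were between 1.89 and 2.31 on the log2(FPKM + 1) scale, and a mean of such a gene describes none of its libraries well.

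**Figure D2:**
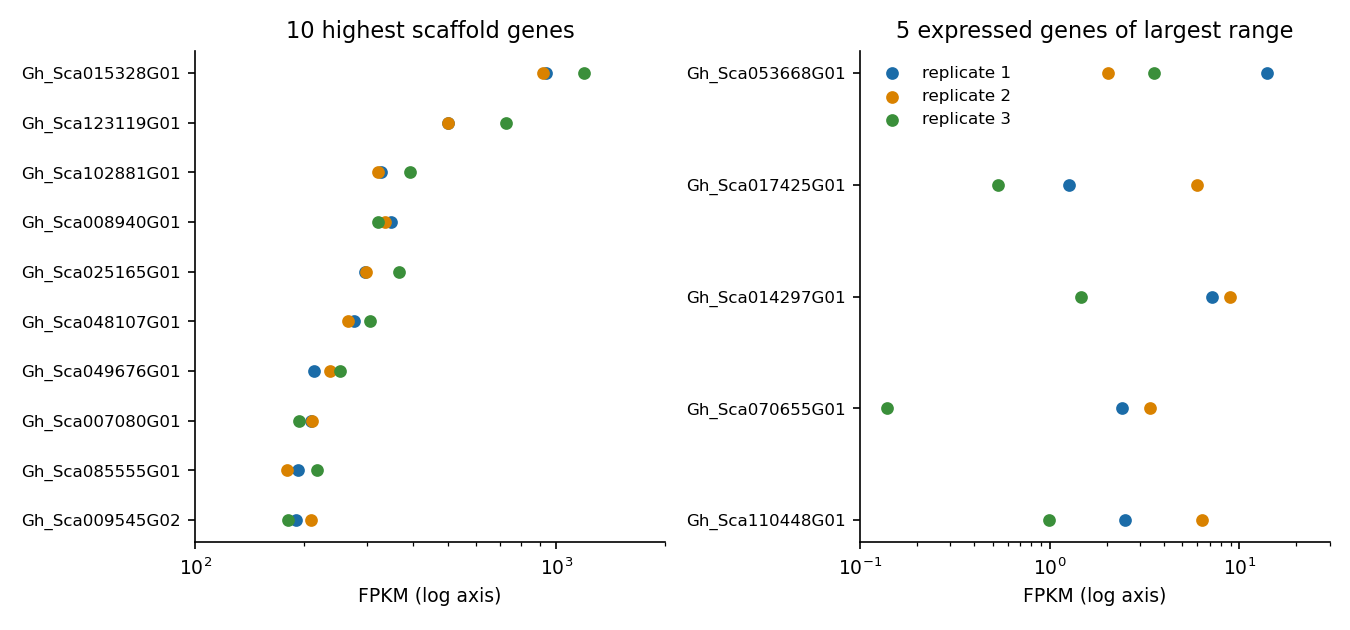
FPKM (x axis, log scale) of named scaffold genes (y axis) in replicates 1, 2 and 3, each point being 1 library. On the left are the 10 highest genes, in which replicate 3 is the highest library in 7 and the lowest in 3 (it is the highest in 37.2% of all expressed scaffold genes), and on the right the 5 expressed genes with the largest range over the libraries.

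To examine whether scaffolds with a single gene differ from those with more, both kinds were compared within each library. On multi-gene scaffolds, 40.0% ± 0.83 (SD, n = 3) of the genes were expressed in a library, and on single-gene scaffolds 16.2% ± 0.06 (SD, n = 3). The difference was 23.3, 24.8 and 23.4 percentage points in replicates 1, 2 and 3 (two-sided exact sign-flip permutation test, p = 0.25, the smallest possible). Mean levels were 1.26 ± 0.01 (SD, n = 3) and 0.52 ± 0.01 (SD, n = 3) on the log2(FPKM + 1) scale, a difference of 0.74 ± 0.01 (SD, n = 3). With each scaffold counted once, by the mean of its genes, the difference was 0.72. Genes on multi-gene scaffolds were nevertheless below the chromosome genes, by -20.0 ± 0.68 percentage points (SD, n = 3) in the expressed share and by -0.76 ± 0.03 (SD, n = 3) in level.

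The step lay between scaffolds with 1 gene and those with 2, and scaffolds with more genes differed far less from the latter. The expressed share by mean FPKM was 16.1% on scaffolds with 1 gene, 39.3% on those with 2, 41.8% on those with 3 or 4 and 40.8% on those with 5 or more. Mean levels were 0.52 ± 0.01, 1.22 ± 0.01, 1.33 ± 0.004 and 1.25 ± 0.01 (SD, n = 3 each) in the same order. By position on the scaffold the differences were small as well. Of the first genes of the 206 multi-gene scaffolds 41.7% were expressed, of the last genes 37.4%, and of the 213 genes in between 42.3%.

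Since multi-gene scaffolds have low numbers, the comparison was repeated among scaffolds of similar number. For this purpose the scaffolds were put in order of number and divided into 10 bins of 362 or 363 scaffolds. Bin 1, with numbers from 4717 to 7035, held 510 genes on multi-gene scaffolds and 205 genes on single-gene scaffolds. There, 44.0% ± 0.82 (SD, n = 3) of the former and 42.3% ± 1.02 (SD, n = 3) of the latter were expressed, a difference of 0.31, 2.95 and 1.87 percentage points in replicates 1, 2 and 3. The level went the other way, with a difference of -0.07 ± 0.02 (SD, n = 3) on the log2(FPKM + 1) scale. In bin 2, with numbers from 7061 to 15152, 23.1% ± 1.38 (SD, n = 3) of 111 genes on multi-gene scaffolds and 26.1% ± 0.97 (SD, n = 3) of 316 single genes were expressed, and the level differed by -0.09 ± 0.07 (SD, n = 3). From bin 3 on, 4 genes lay on multi-gene scaffolds, so no comparison was made there. The advantage of multi-gene scaffolds in expressed share over the whole set, 23.8 percentage points, was thus 1.71 and -2.93 percentage points within bins 1 and 2. From bin 4 on, every scaffold carried a single gene.

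Level fell with scaffold number. The expressed share was 43.5% ± 0.64 (SD, n = 3) in bin 1, 25.3% ± 0.62 in bin 2, 23.7% ± 0.42 in bin 3, 22.4% ± 0.55 in bin 4 and 18.8% ± 0.16 in bin 5. It was 12.7% ± 0.55 in bin 6, 8.26% ± 0.28 in bin 7, 8.29% ± 0.28 in bin 8, 8.17% ± 1.27 in bin 9 and 3.78% ± 0.16 in bin 10 (SD, n = 3 in each case). In this share bins 7, 8 and 9 did not differ beyond the spread of the libraries. Bins 2, 3 and 4 were close to each other but did not overlap in their libraries. By mean FPKM, bins 3 and 4 were nearly equal, at 23.6% (86 of 365 genes) and 23.2% (84 of 362 genes). All libraries measure the same genes, so their spread leaves out the variation between genes, which also enters a difference between bins. Even bin 1 stayed below 55.7%, the lowest share found on a chromosome. Mean level fell from 1.39 ± 0.02 (SD, n = 3) in bin 1 to 0.13 ± 0.01 (SD, n = 3) in bin 10. By this measure bin 9, at 0.24, 0.26 and 0.25 in replicates 1, 2 and 3, lay below every library of bin 7 (0.27, 0.29 and 0.29) and of bin 8 (0.30, 0.29 and 0.29). The share of genes listed at 0 in every library went from 26.7% in bin 1 to 71.0% in bin 10, and was 59.8%, 56.6% and 64.7% in bins 7, 8 and 9.

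The fall was seen in single-gene scaffolds as well, where 41.0% of 205 genes were expressed by mean FPKM in bin 1, 26.3% of 316 in bin 2 and 23.8% of 361 in bin 3. Across all 4044 genes, Spearman's rho of FPKM with scaffold number was -0.34 in replicate 1, -0.33 in replicate 2 and -0.34 in replicate 3. It was -0.27 ± 0.004 (SD, n = 3) across single-gene and -0.23 ± 0.01 (SD, n = 3) across multi-gene scaffolds, and -0.19 ± 0.02 (SD, n = 3) across the expressed genes. These values describe genes that share their libraries and, on multi-gene scaffolds, their scaffold. Among expressed genes, the median FPKM was 6.52 in bin 1 and 5.66 in bin 2, and between 2.47 and 4.32 in the later bins. Genes with mean FPKM of 10 or more made up 14.3% of bin 1 (102 of 715 genes), 9.60% of bin 2 (41 of 427), 4.93% of bin 3 (18 of 365) and none of bin 10 (0 of 362), against 21.9% of all genes. High levels nevertheless occurred at high numbers. The gene of highest level in bin 7 was Gh_Sca123119G01, at a mean FPKM of 577, and that of bin 6 was Gh_Sca102881G01, at 347. In bin 10 the highest was Gh_Sca266548G01, with a mean FPKM of 8.54. What the scaffold number stands for in the assembly, such as an order by length, is not given in the sources used here.

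**Figure D3:**
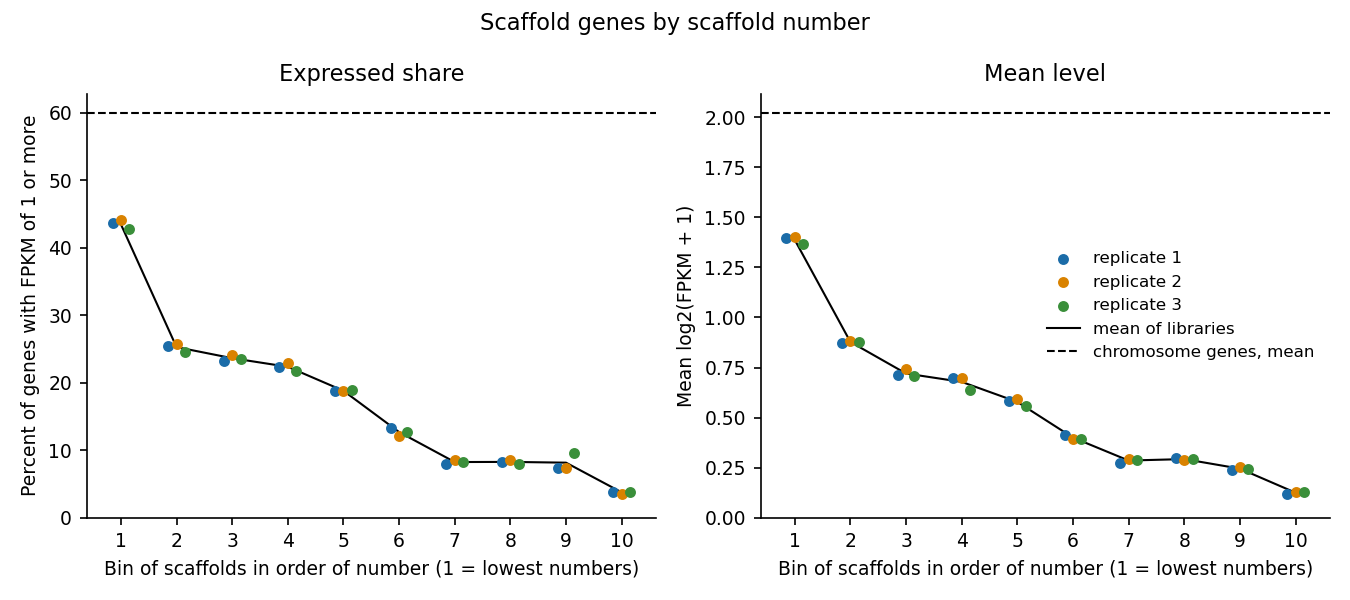
Percent of scaffold genes with FPKM of 1 or more (left) and mean log2(FPKM + 1) (right) in 10 bins of the 3625 scaffolds in order of number (x axis). Points are the 3 libraries, the solid line is their mean and the dashed line is the mean of chromosome genes, 60.0% and 2.02. Both measures fall from bin 1 (43.5% and 1.39) to bin 10 (3.78% and 0.13).

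Genes on the same scaffold resembled each other. The 206 multi-gene scaffolds gave 419 pairs of genes with consecutive indices. Spearman's rho across these pairs was 0.494, 0.499 and 0.472 in replicates 1, 2 and 3. Across 66408 such pairs on the chromosomes it was 0.123, 0.123 and 0.122, and on single chromosomes it ran from 0.077 on A07 to 0.161 on D01. The difference between scaffolds and chromosomes was 0.37 ± 0.01 (SD, n = 3), with the same sign in 3 of 3 libraries (two-sided exact sign-flip permutation test, p = 0.25, the smallest possible). Genes next to each other in the order of the identifiers but on different scaffolds did not show this likeness. For the last gene of a multi-gene scaffold and the first gene of the next multi-gene scaffold in number, rho was -0.05, -0.05 and -0.10 in replicates 1, 2 and 3 (205 pairs). For the last gene of any scaffold and the first gene of the next in number, it was 0.08, 0.10 and 0.09 (3624 pairs). The first pair of each scaffold was also taken alone, so that scaffolds with many genes did not count more than others. For these pairs rho was 0.52 ± 0.03 (SD, n = 3). Across all consecutive pairs within bin 1, rho was 0.46 ± 0.01 (SD, n = 3), so the likeness was also seen among scaffolds of similar number. Bin 1 held 158 of the 206 multi-gene scaffolds, so the value over all scaffolds rests largely on the same pairs.

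The likeness was lower at larger distances. At an index difference of 2, rho was 0.27 ± 0.01 (SD, n = 3) over 213 pairs, at 3 it was 0.29 ± 0.02 (SD, n = 3) over 128 pairs, and at 4 it was 0.13 ± 0.03 (SD, n = 3) over 78 pairs from 35 scaffolds. On the chromosomes the corresponding values were 0.06, 0.06 and 0.04. The pairs at larger distances come from the few scaffolds with many genes, so these steps compare different scaffolds as well as different distances.

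Neighbours agreed mainly in whether they were expressed. Of the 419 pairs, both genes were expressed in 108, neither in 184 and 1 of them in 127. When its neighbour was expressed, a scaffold gene was itself expressed in 63.0% of cases, and when the neighbour was not, in 25.7%. On the chromosomes these values were 64.6% and 53.8%. By mean FPKM, 40.5% of all genes on multi-gene scaffolds and 60.3% of chromosome genes were expressed. Against these shares, the state of the neighbour went with a larger shift on scaffolds in both directions. In replicates 1, 2 and 3, scaffold genes were expressed in 64.7%, 65.3% and 62.5% of cases next to an expressed gene. Next to a gene that was not expressed, the values were 23.8%, 24.7% and 24.8%. Zeros were shared likewise. Next to a gene listed at 0 in every library, 63.3% of scaffold genes were also listed at 0, against 16.2% next to other genes, and on the chromosomes the values were 29.2% and 13.9%. Among pairs in which both genes were expressed, the likeness in level was weak. When genes with mean FPKM below 1 were left out, rho of consecutive genes on scaffolds was 0.12 ± 0.04 (SD, n = 3) and exceeded that on chromosomes by 0.09 ± 0.04 (SD, n = 3).

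**Figure D4:**
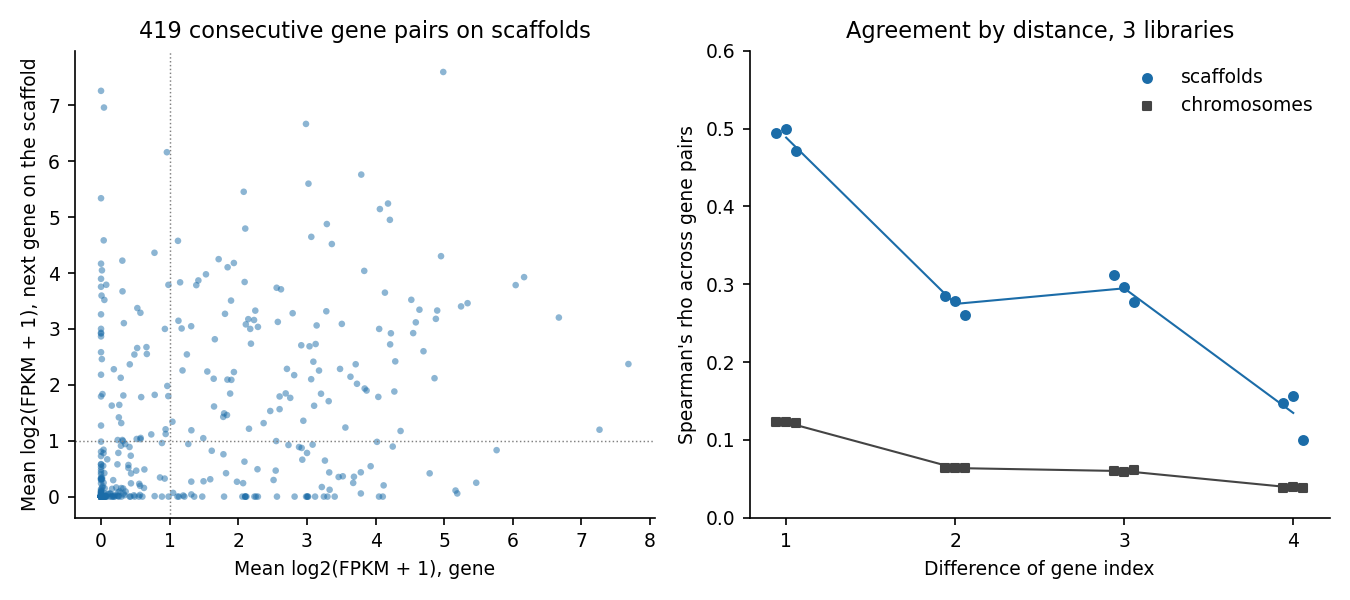
Left, mean log2(FPKM + 1) of a scaffold gene (x axis) and of the next gene on its scaffold (y axis) for the 419 consecutive pairs, with dotted lines at 1, the value that FPKM of 1 has on this scale. Right, Spearman's rho across gene pairs (y axis) against the difference of gene index (x axis) on scaffolds and on chromosomes, each point being 1 of the 3 libraries. The scaffold values fall from 0.49 to 0.13 and the chromosome values from 0.12 to 0.04.

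Scaffolds were also classed as a whole. Of the 206 multi-gene scaffolds, 38 had all genes expressed, 82 had none expressed and 86 had some. On the 121 scaffolds with 2 genes, the numbers were 29, 55 and 37. On 34 multi-gene scaffolds every gene was listed at 0 in every library. Among the 35 scaffolds with 5 or more genes, 26 were mixed, 8 had no expressed gene and 1 had all genes expressed. The scaffolds with 5 or more genes, all at 0, were Sca004996 with 6 genes, Sca005528 with 7, and Sca005537, Sca006129 and Sca007527 with 5 each. The scaffold with all 5 genes expressed was Sca004880. Its second gene, Gh_Sca004880G02, stood at FPKM 94.5, 98.4 and 110.3 in replicates 1, 2 and 3, and the other genes had mean FPKM between 2.59 and 8.23. These scaffolds were picked after their values were seen.

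The multi-gene scaffolds whose lowest gene was highest were all of 2 or 3 genes. On Sca009545, Gh_Sca009545G01 had FPKM of 32.1, 30.7 and 29.4 beside the 189.9, 209.6 and 181 of Gh_Sca009545G02, already named among the highest genes. On Sca005681 the genes were at similar levels, with mean FPKM of 17.7 for Gh_Sca005681G01, 30.4 for Gh_Sca005681G02 and 18.8 for Gh_Sca005681G03. Within this scaffold the libraries moved differently, since replicate 3 was the highest for Gh_Sca005681G02 (25.3, 28.5 and 37.3) and the lowest for Gh_Sca005681G03 (19.1, 20.4 and 16.9). On Sca005051, Gh_Sca005051G01 had 15.6, 13.4 and 18.5 and Gh_Sca005051G02 had 36.0, 33.9 and 33.4. On Sca005213 the first gene was the higher, with 24.1, 24.1 and 23.5 for Gh_Sca005213G01 and 9.63, 10.9 and 7.27 for Gh_Sca005213G02. The genes of Sca004908 were closest to each other but did not overlap, at 15.4, 14.1 and 20.9 for Gh_Sca004908G01 and 9.85, 12.05 and 13.0 for Gh_Sca004908G02.

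Other scaffolds joined a strongly expressed gene to genes near 0. On Sca004932, 4 of 7 genes were listed at 0 in every library, while Gh_Sca004932G05 had FPKM of 147, 126 and 192 in replicates 1, 2 and 3. The gene next to it, Gh_Sca004932G06, stood at 1.31, 1.31 and 1.26. The gap between the highest and the lowest gene of this scaffold was 7.26 on the log2(FPKM + 1) scale. On Sca005495, Gh_Sca005495G02 had 125, 115 and 132, and its sole neighbour Gh_Sca005495G01 was listed at 0, 0.05 and 0.04, a gap of 6.92. On Sca005135 the genes formed a row of falling level, with 67.0, 62.6 and 65.0 for Gh_Sca005135G01, 12.4, 13.0 and 13.0 for Gh_Sca005135G02, and 0, 0 and 0.12 for Gh_Sca005135G03. The remaining scaffolds of large gap were Sca004952 and Sca004867, each with 3 of 6 genes expressed and gaps of 5.69 and 5.62. Their highest genes were Gh_Sca004952G05, at 50.5, 47.5 and 63.2, and Gh_Sca004867G04, at 69.98, 69.8 and 72.3. In all of these the libraries of the highest and of the lowest gene were far apart and did not overlap.

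The scaffolds with most genes showed the same mixture. Sca004717 had 7 of 15 genes expressed and 3 listed at 0 in every library. Its highest gene was Gh_Sca004717G12, with FPKM of 19.3, 24.3 and 16.0 in replicates 1, 2 and 3, followed by Gh_Sca004717G03, with 14.4, 16.5 and 10.6. In both, replicate 2 was the highest library and replicate 3 the lowest. Over the scaffold, no gene had its highest value in replicate 3. Expressed genes lay in runs, since genes 2 to 5 and 12 to 14 were expressed and genes 6 to 11 were not. Sca004768 had 5 of 11 genes expressed and no strongly expressed gene. Its highest were Gh_Sca004768G06, with 7.26, 6.74 and 8.51, and Gh_Sca004768G08, with 6.005, 6.55 and 8.70, and the gene between them, Gh_Sca004768G07, stood at 1.30, 0.86 and 0.61. The last genes of this scaffold, Gh_Sca004768G10 and Gh_Sca004768G11, were above 0 in a single library each. Sca004842 had 5 of 9 genes expressed. Its first gene, Gh_Sca004842G01, stood at 9.04, 9.796 and 8.28. The following genes were lower, with mean FPKM of 0.36 for Gh_Sca004842G02, 0.66 for Gh_Sca004842G03, 1.16 for Gh_Sca004842G04, 0 for Gh_Sca004842G05 and 0.55 for Gh_Sca004842G06. Levels were higher again at the other end. Gh_Sca004842G08 had 28.7, 29.0 and 27.5, with neighbours Gh_Sca004842G07 at 8.26, 9.48 and 8.63 and Gh_Sca004842G09 at 8.32, 10.2 and 6.13, so that this end of the scaffold was expressed throughout.

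Neighbours also shared some of the differences between libraries, but in replicates 1 and 3 this rested largely on a single scaffold. For each library, the deviation of a gene from its own mean over the libraries was compared between consecutive expressed genes. Across the 108 pairs on scaffolds, Pearson's r of these deviations was 0.26, 0.29 and 0.42 in replicates 1, 2 and 3. Across 25859 pairs on chromosomes it was 0.02, 0.03 and 0.04. On Sca007624, picked for these values, 5 of 8 genes were expressed and all 5 had their highest value in replicate 3. Gh_Sca007624G06 had FPKM of 26.7, 28.3 and 80.9, and Gh_Sca007624G03 had 15.8, 16.5 and 46.1. Gh_Sca007624G07 stood at 5.98, 8.10 and 20.0, Gh_Sca007624G04 at 4.71, 6.68 and 14.0, and Gh_Sca007624G01 at 0.46, 1.10 and 4.03. In each of these 5 genes replicate 3 lay far above the other libraries. Gh_Sca007624G08, at 0.29, 0.32 and 0.22, did not share this pattern. Without this scaffold, r over the remaining 106 pairs was -0.06, 0.24 and 0.15.

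**Figure D5:**
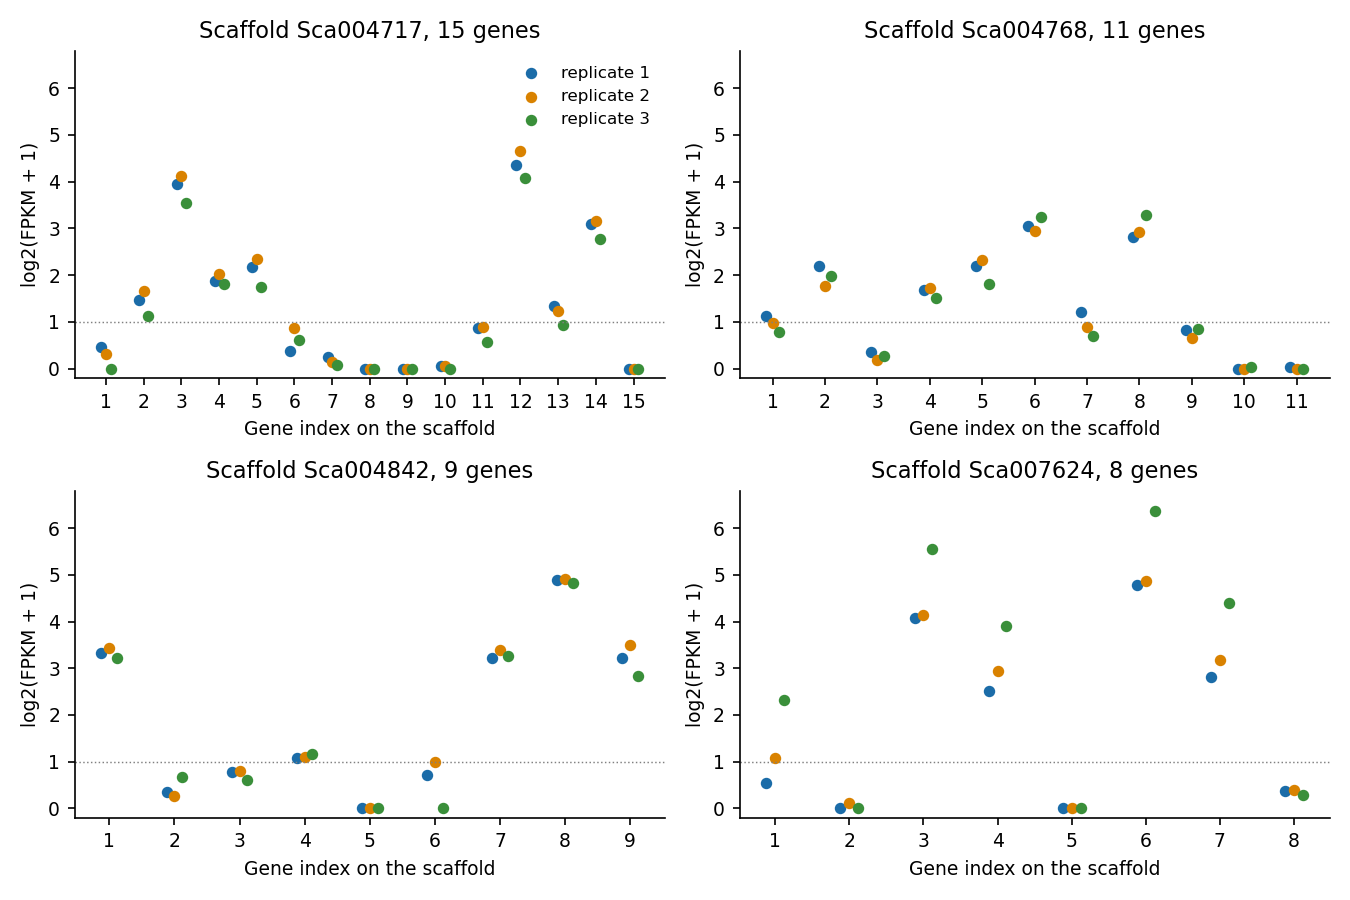
log2(FPKM + 1) (y axis) by gene index (x axis) on the 3 scaffolds with most genes and on Sca007624, each point being 1 library and the dotted line marking FPKM of 1. Expressed genes on Sca004717 lie in runs (genes 2 to 5 and 12 to 14), and on Sca007624 replicate 3 is the highest library in all 5 expressed genes.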

How the data were processed

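The deposited FPKM values of 3 leaf libraries were used, 1 table per library. Libraries were made from mRNA. Trimming with fastp, mapping with Hisat2 and estimation of FPKM by StringTie on the CottonGen gene models were done by the authors, per the paper's methods. The methods also state, right after a step for ChIP-seq reads, that alignments of low mapping quality were discarded with SAMtools, and the study lists uniquely mapped reads for the leaf RNA-seq libraries. Such a filter takes out reads that match several places equally well. Whether FPKM were computed after it is not stated, and tool versions are not given in the sources used here. Because FPKM hold no counts, count models were left aside. Among genes below FPKM 0.05 in both libraries, the commonest ratio between libraries was 0.96, 0.99 and 1.04 for replicates 1 to 2, 1 to 3 and 2 to 3, so relative depth was similar. No library pair had identical values, and 0 genes shared all 3 values above 0 with another gene.

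Scaffold number and gene index were read from the identifiers. Levels are means of log2(FPKM + 1) over genes. Differences between gene sets were computed within each library and tested over the libraries by two-sided exact sign flips, with 3 libraries as n. Genes are not replicates, and correlations across them have no p-value. Python 3.11.15, numpy 2.4.6, pandas 2.3.3, scipy 1.17.1 and matplotlib 3.10.9 were used. The functions for the level difference, the intraclass correlation, rho with scaffold number and the sign flips were tested on simulated data. Those for the expressed share and for pairs of neighbours were not. Alternatives covered the pseudocount, filters and bounds on FPKM, the reference chromosomes, upper-quartile scaling, 1 value per scaffold and leaving out each library. Named genes were the 10 highest, those of the 3 scaffolds with most genes, and the 5 expressed genes of largest range over libraries. Also named were those of the 5 multi-gene scaffolds with the highest lowest gene and of the 5 with the largest gap. Genes with values identical to those of another gene were also to be named, and none occurred. The members, lists and comparisons were chosen with earlier results of these data known.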

Additional observations from a re-analysis of the deposited data

How the results depend on the processing

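Of 43 alternatives to the 5 differences between gene sets, 40 kept the direction and 3 reversed it. These were the level of multi-gene minus single-gene scaffolds within bin 1 (-0.0689) and bin 2 (-0.0853) of scaffolds by number, and the expressed share within bin 2 (-2.93 percentage points), alternatives chosen after seeing the data, as were the first pairs of scaffolds, single-gene or multi-gene scaffolds alone and genes above 0. Leaving out each library in turn kept the direction of the 5 differences, with 0.5 as the smallest p that sign flips then allow. It also kept the sign of the neighbour correlation on scaffolds and of rho with scaffold number. The count of expressed scaffold genes and the scaffold share of the FPKM sum have no direction to reverse. The level of scaffold minus chromosome genes was between -1.40 and -1.38, the expressed share between -40.6 and -39.9 percentage points, and the count of expressed scaffold genes between 796 and 809. The level difference ran from -3.85 at a pseudocount of 0.01 to -0.45 among expressed genes, and that of multi-gene minus single-gene scaffolds from 2.32 to 0.17 in the same settings. At a bound of FPKM 5, 378 scaffold genes were counted instead of 802. Without the 10 highest genes, the scaffold share of the FPKM sum was 0.88%. The neighbour correlation on scaffolds was 0.12 among expressed genes, 0.39 as Pearson's r, 0.31 as an intraclass correlation, 0.52 for first pairs and 0.46 in bin 1. Its excess over chromosomes was 0.09 among expressed genes. Spearman's rho with scaffold number was -0.32 by scaffold, -0.19 among expressed genes, -0.27 on single-gene and -0.23 on multi-gene scaffolds. The differences between gene sets were already taken within each library. With no read counts in the files, how far few reads per gene limit the values near 0 was not tested.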
